A study of Mus musculus with 9 samples.

Results

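Chemokines are small secreted proteins that guide migrating cells, and their receptors are G protein-coupled receptors of the cell surface. The set described here holds the 42 protein-coding genes, of 22587 genes in the tables, whose symbols name them as a chemokine or a chemokine receptor. There were 27 ligands and 15 receptors. The ligands were 17 CC, 9 CXC and 1 CX3C chemokines, and the receptors were 10 conventional and 5 atypical ones, with Ccrl2 counted among the atypical. RefSeq lists 63 genes of the family in the mouse, and 20 of them, among them Ccl3, Ccl4, Ccl5, Cxcl9, Cxcr2, Cxcr3 and Ccr7, had no row in the tables. Every gene with a row had at least 1 read in each library, so the members are limited to such genes.

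RNA came from whole eyeballs of female wild-type BALB/C mice, an albino inbred strain, with 3 libraries in each of 3 groups. The CON mice had no treatment and were given water. The DES mice were injected intraperitoneally with scopolamine, a blocker of muscarinic acetylcholine receptors used to bring about dry eye, and were given water. The T.chuii mice had the same injections and were fed Tetraselmis chuii, a green microalga, at 300 mg/kg. Treatment ran for 2 weeks from 6 weeks of age, and the tissue age was postnatal day 56. Whether each library is a different animal is not stated in the labels, so the p-values refer to the spread among these libraries, and that spread may be technical. A name such as CON 1 gives the group and the number in the sample title.

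The ligand classes are named for the spacing of the first cysteines of the mature protein. CC chemokines mostly attract monocytes, eosinophils and lymphocytes. CXC chemokines with the residues glutamate, leucine and arginine before the cysteines attract neutrophils, and many of the others attract lymphocytes. Cx3cl1 is made as a membrane protein from which a soluble form is shed. Conventional receptors signal through G proteins, while atypical receptors bind chemokines without that signalling and remove them, transport them or hold them on the cell surface. In the retina, microglia carry Cx3cr1 and neurons make its ligand Cx3cl1. At the ocular surface, chemokines made by the epithelium are known to draw in leukocytes in dry eye.

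The coding sequence around the first cysteine pair shows the classes directly, and 4 ligands are printed for that reason, with the cysteine codons in capitals (mm10, GENCODE principal transcripts, 5′ to 3′).
Ccl2: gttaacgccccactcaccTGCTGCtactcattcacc
Cxcl1: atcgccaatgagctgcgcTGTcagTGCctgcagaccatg
Cxcl12: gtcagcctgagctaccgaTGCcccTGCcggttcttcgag
Cx3cl1: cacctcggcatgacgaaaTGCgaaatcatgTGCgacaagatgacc
The 2 cysteine codons were adjacent in Ccl2, 1 codon apart in Cxcl1 and Cxcl12, and 3 codons apart in Cx3cl1. All 17 Ccl members had the first spacing and all 9 Cxcl members the second. The codons for glutamate, leucine and arginine stood directly before the pair in Cxcl1, Cxcl2 and Cxcl5, and in no other CXC member.

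Many of the genes share a few chromosomes, in places as close neighbours and in places far apart (mm10, RefSeq of GRCm38.p6). Chromosome 11 held 8 ligands and the receptor Ccr10. Its Ccl genes lie close together, from Ccl2 at base 82035577 to Ccl6, which ends at 83593087. Cxcl16, from base 70454389, and Ccr10, from base 101172998, lie apart from them. Chromosome 5 held 6 ligands, chromosome 4 held 5, and chromosome 9 held 10 receptors and no ligand. Some values are uncertain because of this arrangement or because of copies. Ccl21a and Ccl21b differed at 2 of 399 coding bases, and Ccl27a and Ccl27b at 3 of 360, so the division of reads between the copies is uncertain. Another protein-coding gene overlapped 8 members, namely Ackr1 with Cadm3, Ackr4 with Acad11, Ccr10 with Cntnap1, Cxcr6 with Fyco1, Cxcl10 with Art3, Cxcl16 with Zmynd15, Ccl27a with Il11ra1 and Ccl27b with Il11ra2. The library kit was stranded, but how strand was used in the counting was not given in the sources used here. Overlap was judged on whole gene spans and not on exons. How far the reads of such pairs were told apart is therefore not known.

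Libraries held 39.1 to 64.6 M reads, and no pair agreed within sampling noise. Markers of the eye were present, with the corneal keratin Krt12 at 3997 to 33865 CPM (read counts relative to the scaled size of the library), while the lens crystallin Cryaa ranged from 0.261 to 38281 CPM. CON 2, DES 1 and T.chuii 1 stood apart: the ratio of summed corneal epithelium to summed rod markers was 4.77, 3.06 and 4.78 in them and 0.406 to 1.04 in the other 6. These libraries are treated below as a group only to show what moves with that ratio.

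Member genes took 0.0264% to 0.0415% of a library's reads, and 4 of them, Cxcl12, Ackr3, Cx3cl1 and Ccl6, held 48.6% to 66.1% of those. Levels of different genes are compared as FPKM (sequenced fragments per kilobase of a gene's transcript, relative to library size), which allows for gene length. Cxcl12, the homeostatic ligand of Cxcr4 and Ackr3, had the highest mean, 31.1 ± 6.21 FPKM (SD, n = 9 libraries), above 86.8% of the genes tested. Of the 42 members, 6 had a mean of at least 10 FPKM, 19 lay from 1 to 10, and 17 were under 1. Receptors made up 11 of those 17. In the order of mean levels, all 41 pairs of neighbours had ranges that overlapped, so the order of neighbours is not resolved. In whole-eye RNA, fewer cells of a type and less RNA per cell cannot be told apart.

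**Figure D1:**
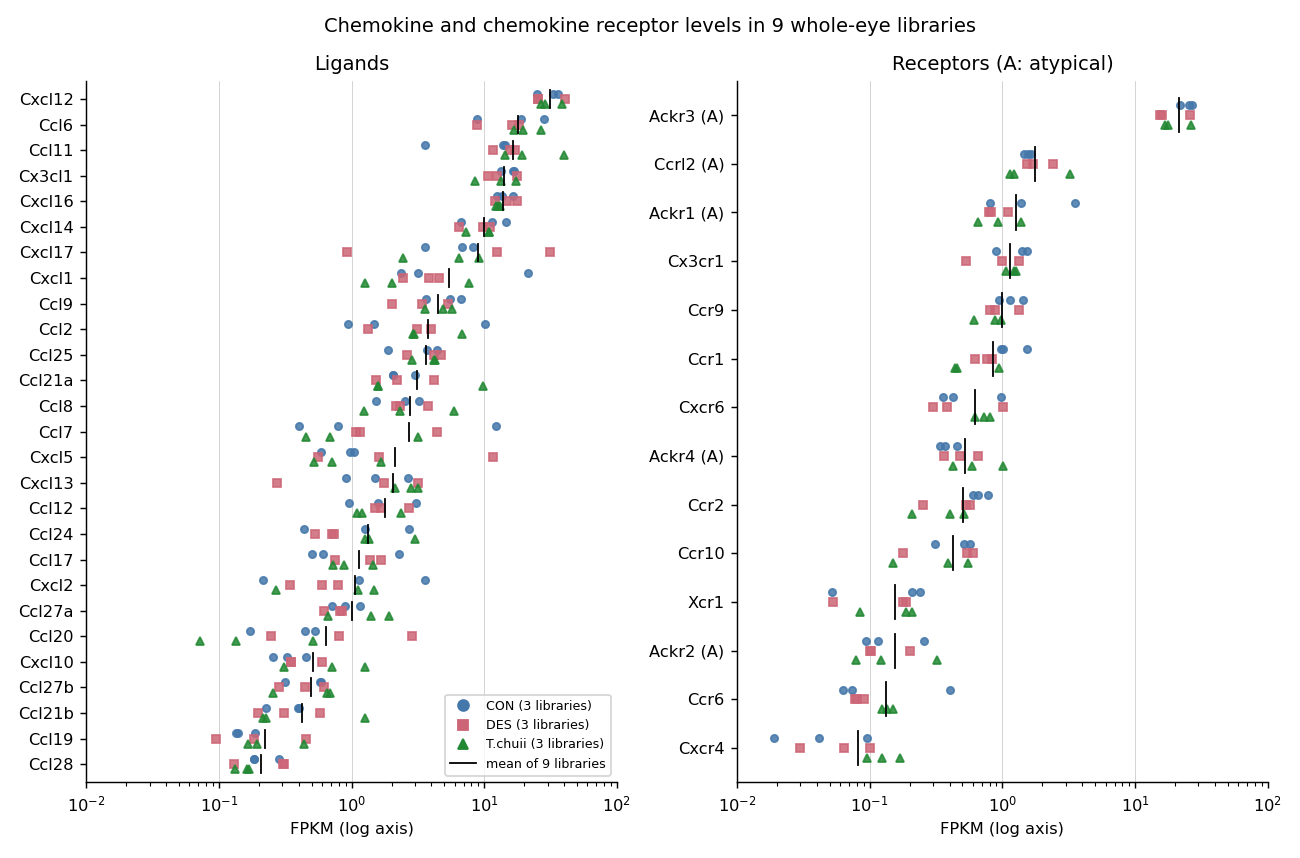
Level of each of the 27 ligands (left) and of 14 of the 15 receptors (right) in FPKM on a log axis, with 1 point per library coloured by group and a black line at the mean of 9 libraries. Ackr3 was the only receptor with a mean above 2 FPKM, and Cxcl12 led the ligands.

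Among the homeostatic ligands, Cxcl12 measured 35.8, 24.8 and 33.0 FPKM (CON), 40.8, 25.5 and 25.2 (DES) and 38.8, 28.7 and 26.9 (T.chuii). The 3 groups overlapped over nearly their whole range. Cx3cl1, the microglial ligand, measured 16.5, 13.4 and 16.7 FPKM (CON), 12.4, 17.8 and 10.6 (DES) and 8.46, 13.3 and 17.5 (T.chuii). The lowest value was that of T.chuii 1, and the groups overlapped. Cxcl16, a transmembrane ligand and scavenger receptor for oxidized lipid, was the steadiest of the high members, at 12.5, 16.6 and 13.6 FPKM (CON), 12.1, 17.6 and 14.8 (DES) and 12.3, 13.1 and 12.7 (T.chuii). Its highest CPM was 1.55 times its lowest. Cxcl14, a ligand of epithelia, had a mean of 9.90 FPKM.

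Ccl6 and Ccl11 were the highest CC ligands. Ccl6, a ligand of myeloid cells, measured 28.1, 8.76 and 19.1 FPKM (CON), 8.89, 16.3 and 18.2 (DES) and 26.7, 16.7 and 19.8 (T.chuii). It was lowest in CON 2 and DES 1. Its neighbour on chromosome 11, Ccl9, had a mean of 4.51 FPKM and was lowest in DES 1, at 2.01 FPKM. Ccl11, eotaxin, which attracts eosinophils through Ccr3, measured 14.3, 3.60 and 13.9 FPKM (CON), 15.7, 17.0 and 11.7 (DES) and 39.8, 14.2 and 19.1 (T.chuii). On either side of a middle group of 7 libraries, CON 2 was low and T.chuii 1 was high.

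Among the receptors, the atypical receptor Ackr3, which removes Cxcl12, stood far above the rest. It measured 25.5, 27.0 and 21.7 FPKM (CON), 25.9, 15.9 and 15.5 (DES) and 26.3, 16.7 and 17.7 (T.chuii). Cxcr4, the conventional receptor for the same ligand, had the lowest mean of all members, 0.0819 FPKM, with 2 to 16 reads per library. Ackr3 exceeded Cxcr4 in all 9 libraries, by 99.4 to 1146 times with a median of 241 times, and Cxcl12 exceeded Ackr3 in 8 of 9, with a median ratio of 1.53. The exception was CON 2, where Cxcl12 was 0.919 times Ackr3.

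The atypical receptor Ccrl2, which binds chemerin, followed with 1.57, 1.63 and 1.47 FPKM (CON), 2.43, 1.70 and 1.52 (DES) and 3.22, 1.15 and 1.23 (T.chuii). The CON libraries lay within 0.2 FPKM of each other, while T.chuii held both the highest and the lowest library. Ackr1, the receptor of venules and red blood cells that binds many inflammatory chemokines, measured 3.54, 0.801 and 1.38 FPKM (CON), 0.792, 0.821 and 1.10 (DES) and 0.651, 1.39 and 0.925 (T.chuii). CON 1 stood above the other 8. The remaining atypical receptors, Ackr4 and Ackr2, had means of 0.521 and 0.154 FPKM.

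Cx3cr1, the microglial receptor, had the highest mean among conventional receptors, at 0.900, 1.53 and 1.40 FPKM (CON), 1.34, 0.996 and 0.531 (DES) and 1.06, 1.23 and 1.27 (T.chuii). Its ligand exceeded it in all 9 libraries, by 7.98 to 20.01 times. The lowest library was DES 3. Macrophage and microglia markers, of which 12 of 12 were in the tables, summed to 279 to 497 CPM (CON), 242 to 368 (DES) and 267 to 432 (T.chuii). The monocyte receptors Ccr1 and Ccr2 had means of 0.843 and 0.502 FPKM.

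Ccr9, a lymphocyte receptor known for guiding T cells to the gut, measured 1.14, 0.936 and 1.42 FPKM (CON), 0.801, 1.34 and 0.884 (DES) and 0.608, 0.884 and 0.969 (T.chuii). Its ligand Ccl25 measured 3.72, 1.87 and 4.42 FPKM (CON), 2.60, 4.19 and 4.69 (DES) and 2.85, 4.22 and 4.17 (T.chuii), which was 2.00 to 5.31 times Ccr9. Ccr9 was lowest in T.chuii 1 and DES 1, and Ccl25 in CON 2, DES 1 and T.chuii 1. The T and NK cell markers in the tables, 3 of 10 listed, summed to 1.33 to 2.39 CPM (CON), 1.37 to 2.098 (DES) and 1.08 to 1.68 (T.chuii). The B cell marker in the tables, 1 of 6 listed, lay at 0.214 to 1.08 CPM (CON), 0.624 to 0.742 (DES) and 0.349 to 0.700 (T.chuii). Dendritic and Langerhans cell markers, 4 of 7 listed, summed to 20.5 to 22.8 CPM (CON), 23.3 to 29.4 (DES) and 18.6 to 28.3 (T.chuii). Mast cell markers, 5 of 5 listed, summed to 62.8 to 100 CPM (CON), 45.0 to 66.1 (DES) and 40.4 to 81.0 (T.chuii). The dendritic sum did not overlap between CON and DES, while the mast cell sum did. The part of these cells in the members' values was not tested. No marker in the tables was at 0 in any library, and the other listed markers had no row there.

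In most of the other pairs too the ligand lay above its receptor. Cxcr6, the receptor for Cxcl16, measured 0.421, 0.356 and 0.974 FPKM (CON), 0.385, 1.01 and 0.2997 (DES) and 0.620, 0.801 and 0.728 (T.chuii), and Cxcl16 exceeded it by 13.9 to 49.5 times. Ccr2 measured 0.784, 0.654 and 0.597 FPKM (CON), 0.532, 0.567 and 0.253 (DES) and 0.516, 0.209 and 0.402 (T.chuii), and its ligand Ccl2 exceeded it by 1.45 to 15.6 times. Ccr6, a receptor of lymphocytes, measured 0.0633, 0.0736 and 0.400 FPKM (CON), 0.0802, 0.0773 and 0.0908 (DES) and 0.151, 0.135 and 0.123 (T.chuii). CON 3 was its highest library, but in CPM it was close to T.chuii 1, at 0.587 against 0.536. Its ligand Ccl20 lay between 0.429 and 36.7 times Ccr6. Ccl27a, a ligand of skin, was 1.26 to 4.90 times its receptor Ccr10 in all 9 libraries. The mucosal ligand of the same receptor, Ccl28, exceeded Ccr10 in 2 of 9, by up to 1.71 times. The FPKM of Ccl27a did not follow its CPM, with 1.90 FPKM at 1.91 CPM in T.chuii 3 and 0.885 FPKM at 2.76 CPM in CON 2.

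**Figure D2:**
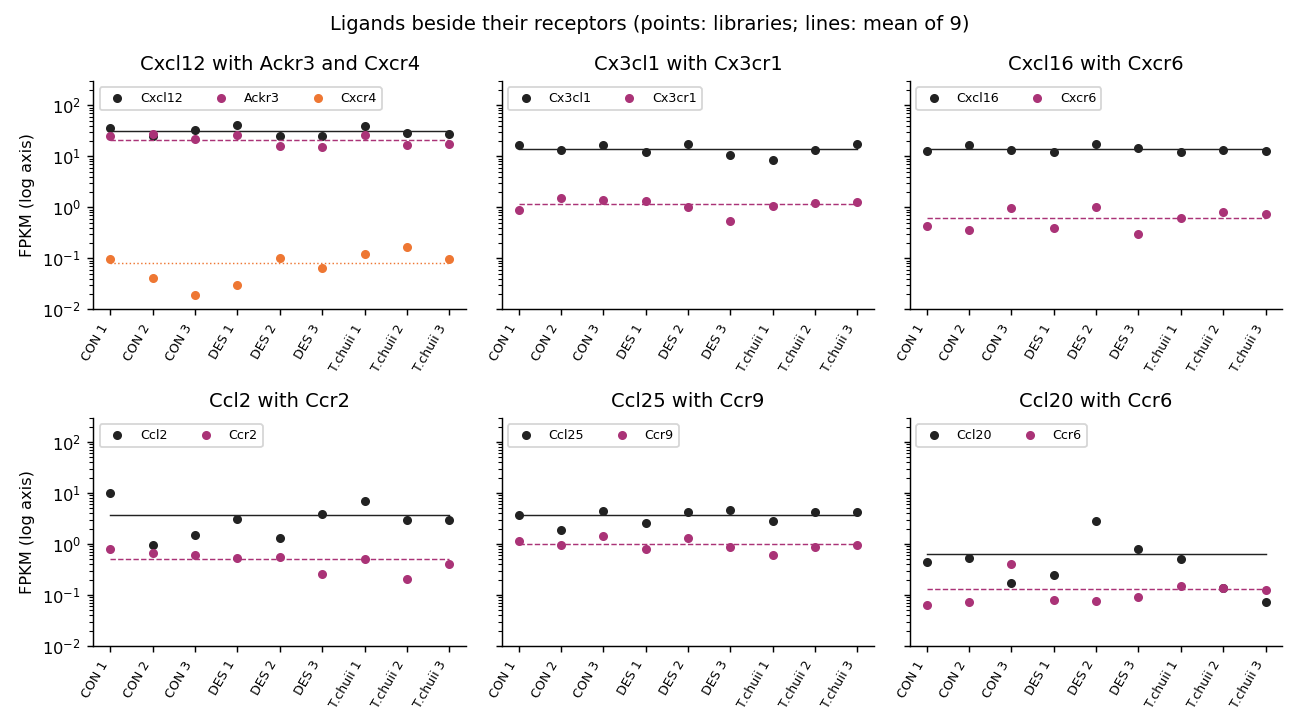
FPKM on a log axis of 6 ligands (black) and their receptors (purple and orange) in each of the 9 libraries, with lines at the means. The ligand lay above its conventional receptor in all 9 libraries in every panel but that of Ccl20 and Ccr6, where it did so in 7.

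Members varied widely among libraries of the same group. The median SD within groups, on the log2(CPM + 0.1) scale, was 0.577 over the 41 members tested and 0.399 over the 21287 genes tested. The highest library exceeded 3 times the median in 11 of 41 members (26.8%), against 4.91% of all genes tested. Many members were low, with 17 of the 42 at a mean under 1 FPKM. They were not set against genes of like level, so the part of level in this spread was not tested. The high values of single members lay mostly in CON 1, DES 2 and T.chuii 1, and the ligands concerned differed from library to library. T.chuii 1 was the highest library for 14 of 41 members (34.1%), against 13.7% of all genes, and CON 1 for 9 (22.0%), against 6.24%. CON 2 was the highest for 3 members (7.32%), against 29.2% of all genes.

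**Figure D3:**
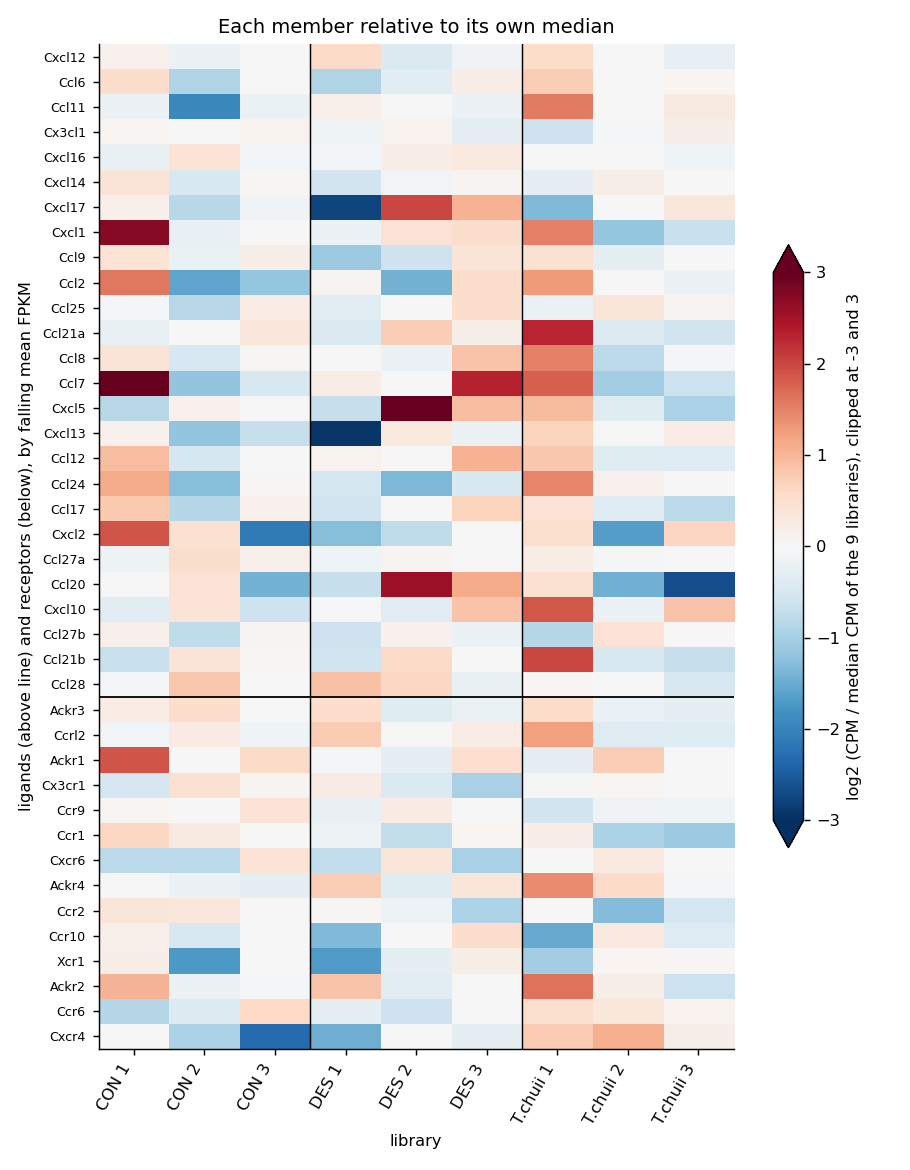
Log2 ratio of each library's CPM to the median of the 9 libraries for 40 of the 41 members tested, with red above and blue below the median and vertical lines between CON, DES and T.chuii. The deepest red cells were Ccl7 and Cxcl1 in CON 1, Cxcl5 and Ccl20 in DES 2, Ccl21a in T.chuii 1 and Ccl7 in DES 3.

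CON 1 was the highest library for 4 ligands that attract neutrophils or monocytes, Cxcl1, Cxcl2, Ccl2 and Ccl7, but not for others of these kinds. Cxcl1, a neutrophil attractant, measured 19.8, 2.57 and 2.99 CPM (CON), 2.63, 4.04 and 4.33 (DES) and 8.53, 1.33 and 1.89 (T.chuii). The monocyte attractant Ccl7 measured 9.39, 0.379 and 0.621 CPM (CON), 0.983, 0.859 and 4.22 (DES) and 2.96, 0.415 and 0.548 (T.chuii). Ccl2, of the same kind, measured 7.88, 0.878 and 1.17 CPM (CON), 2.81, 0.994 and 3.78 (DES) and 6.41, 2.64 and 2.34 (T.chuii). T.chuii 1 and DES 3 were the next high libraries. Other such ligands were not highest in CON 1: the neutrophil attractant Cxcl5 was at 0.949 CPM there, below its median of 1.68, and the monocyte attractants Ccl8 and Ccl12, at 1.61 and 1.59 CPM, peaked in T.chuii 1 (3.52 CPM) and DES 3 (1.74 CPM). Cxcl2, a second neutrophil attractant, was also highest in CON 1, at 3.75 CPM against at most 1.61 elsewhere. The cytokine Il1b, an inducer of these ligands, was at 4.29 CPM in CON 1, 3.75 in T.chuii 1 and 0.567 to 2.76 in the other 7. Neutrophil markers, of which 4 of 8 were in the tables, summed to 2.75 to 4.70 CPM (CON), 1.37 to 9.83 (DES) and 2.07 to 7.55 (T.chuii), with the most in DES 3. Monocyte markers, 3 of 4 listed, summed to 93.9 to 162 CPM (CON), 61.5 to 271 (DES) and 63.6 to 246 (T.chuii). Their part in these levels was not tested.

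Cxcl1 and Cxcl2 stand close together on chromosome 5, and their promoters are printed because both genes were highest in CON 1 (RefSeq, GRCm38.p6, 250 bases before to 50 bases after the start, 5′ to 3′). Capitals mark the runs of at least 10 bases that the 2 windows share.
Cxcl1: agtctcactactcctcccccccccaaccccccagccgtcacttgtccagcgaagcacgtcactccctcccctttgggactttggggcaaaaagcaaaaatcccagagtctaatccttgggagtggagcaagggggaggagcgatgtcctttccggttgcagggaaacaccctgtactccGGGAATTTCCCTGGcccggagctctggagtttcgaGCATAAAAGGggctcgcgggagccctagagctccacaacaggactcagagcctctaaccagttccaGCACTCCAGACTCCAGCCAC
Cxcl2: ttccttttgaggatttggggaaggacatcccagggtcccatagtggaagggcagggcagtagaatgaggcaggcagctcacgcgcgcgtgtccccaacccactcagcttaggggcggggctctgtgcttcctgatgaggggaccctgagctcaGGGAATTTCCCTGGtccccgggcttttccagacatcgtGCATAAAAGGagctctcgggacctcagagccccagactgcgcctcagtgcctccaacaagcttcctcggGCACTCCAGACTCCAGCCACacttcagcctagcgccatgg
The windows are chr5:90890995-90891294 and chr5:90903649-90903948, both on the plus strand. The run of 14 bases, GGGAATTTCCCTGG, began 71 bases before the start of Cxcl1 and 97 bases before that of Cxcl2. It has the letters of a kappaB site, the kind of sequence that the inflammatory factor NF-kappaB binds. Searched on both strands, it was held by 2 of 32851 RefSeq windows of this length (0.00609%), these 2. The run of 10 bases, GCATAAAAGG, lay 36 and 59 bases before the starts and was held by 20 windows (0.0609%). The longest run, of 20 bases, lay after both starts and was also held by these 2 windows alone. Each run was chosen because these 2 windows share it, so their holding it was fixed in advance. Its rarity among the other windows was therefore no test of a site. Windows were available for 33 of the 42 members, and Ccl2, Ccl7 and Cxcl5 had none. The runs are descriptions of sequence and not measured sites.

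DES 2 was the highest library for Cxcl5, Ccl20 and Cxcl17. Cxcl5, a neutrophil attractant made by epithelial cells, measured 0.949, 1.84 and 1.68 CPM (CON), 1.04, 17.7 and 3.17 (DES) and 3.24, 1.31 and 0.870 (T.chuii). DES 2 was 5.47 times the next library. Ccl20, which attracts Ccr6-bearing lymphocytes to mucosa, measured 0.356, 0.482 and 0.134 CPM (CON), 0.221, 2.11 and 0.773 (DES) and 0.489, 0.131 and 0.0567 (T.chuii). Cxcl17, a mucosal chemokine, measured 6.07, 3.08 and 5.05 CPM (CON), 0.802, 21.9 and 11.2 (DES) and 2.19, 5.45 and 6.90 (T.chuii), so DES held its lowest library and its 2 highest. Other ligands of mucosa or epithelia did not peak there: Ccl28 was at 1.15 CPM in DES 2 and highest in DES 1 (1.36 CPM), while Ccl25 and Cxcl14 were at 4.20 and 19.0 CPM, beside medians of 4.20 and 20.02. Conjunctiva and goblet cell markers, a list drawn up after these values were seen and with 8 of 10 genes in the tables, summed to 597 to 1239 CPM (CON), 506 to 1284 (DES) and 455 to 762 (T.chuii). Of the 8 genes, 6 were highest in DES 2, among them the goblet cell mucin Muc5ac, at 99.9 CPM against 1.00 to 32.0 elsewhere. The other 2, Krt13 and Fcgbp, were highest in CON 2, at 546 and 8.8 CPM against 246 and 5.54 in DES 2. The part of conjunctiva in these levels was not tested.

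T.chuii 1 was the highest library for Ccl21a, Ccl21b, Ccl11 and Cxcl10. Ccl21a, the lymphatic ligand of Ccr7, measured 1.73, 2.01 and 2.53 CPM (CON), 1.48, 3.34 and 2.29 (DES) and 9.85, 1.53 and 1.38 (T.chuii). Its copy Ccl21b was also highest there, at 1.21 CPM, as was Ccl21d, listed as Gm21541 and outside the symbol rule, at 1.10 CPM against 0.181 to 0.405 elsewhere. The lymphatic endothelium markers, 5 of 5 in the tables, were Lyve1, Prox1, Pdpn, Flt4 and Reln. They summed to 114 to 143 CPM (CON), 139 to 147 (DES) and 138 to 182 (T.chuii). T.chuii 1 was at 138 CPM, and T.chuii 2 was the highest library. Whether these genes mark lymphatic vessels alone in whole-eye RNA was not tested, so the sum does not settle their amount. Ccl11 in T.chuii 1 was 49.7 CPM, 2.46 times the next library. The interferon-induced T cell attractant Cxcl10 measured 0.356, 0.585 and 0.285 CPM (CON), 0.441, 0.354 and 0.801 (DES) and 1.61, 0.393 and 0.794 (T.chuii). Cxcl11, listed as a transcribed pseudogene and so no member, was highest in the same library, at 1.42 CPM against 0.131 to 0.607. Adipocyte markers, 3 of 6 listed, summed to 1559 CPM in T.chuii 1 and to 4.67 to 29.5 in CON, 11.7 to 43.5 in DES and 84.4 to 327 in the other T.chuii libraries. Fast muscle markers, 8 of 8 listed, were also highest there, at 13606 CPM against 682 to 6846. The part of tissue around the eyeball in these levels was not tested.

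**Figure D4:**
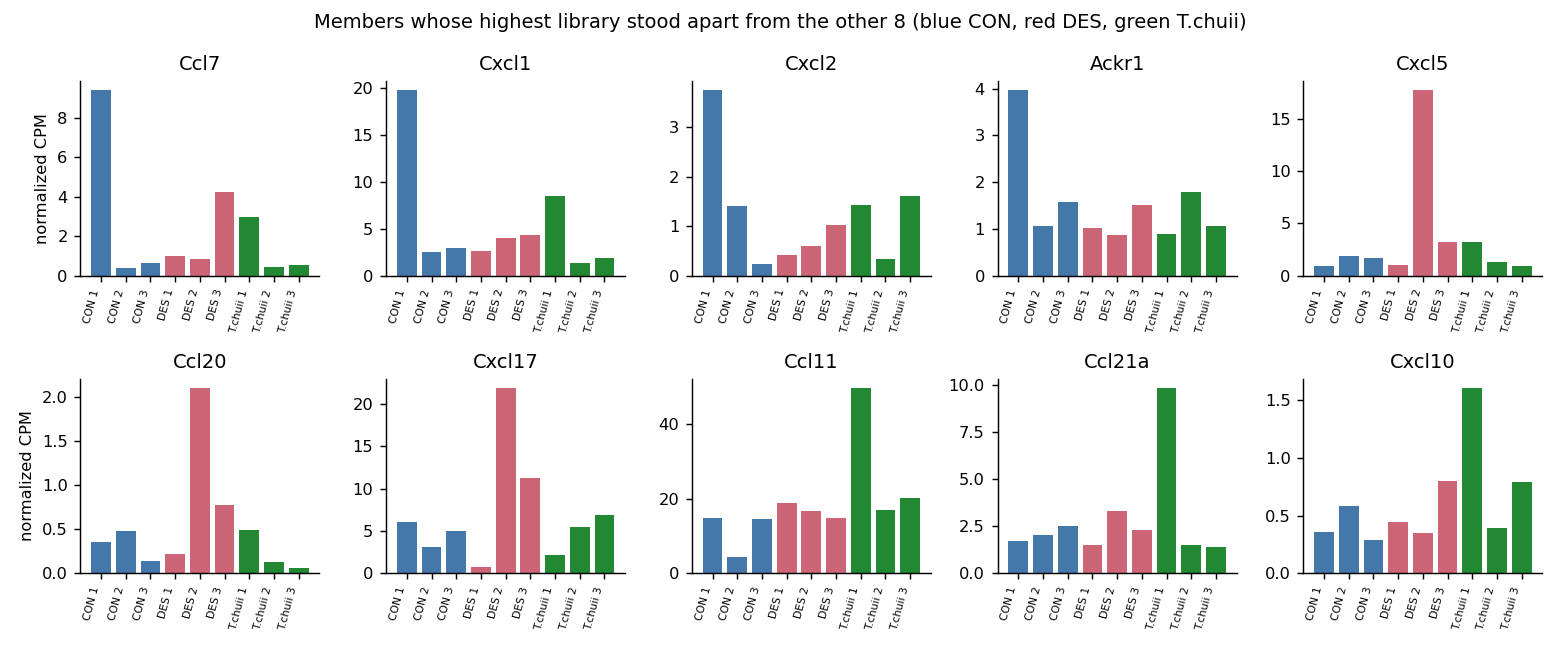
CPM in each of the 9 libraries for 10 members, coloured by group, with axes from 0 that differ between panels. The first 4 panels peaked in CON 1, the next 3 in DES 2 and the last 3 in T.chuii 1.

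Some members stood apart in the 3 libraries with the highest ratio of corneal to rod markers. In CON 2, DES 1 and T.chuii 1, Ackr3 lay at 61.9 to 63.1 CPM, against 33.9 to 50.3 in the other 6 libraries. Ccrl2 lay at 3.93 to 7.71 CPM against 2.51 to 3.84. Apart from these 2 members, 6 others lay below the other libraries without overlap: Xcr1, Ccr10, Ccl25, Ccl27b, Cxcl14 and Cxcl17. Xcr1, a receptor of cross-presenting dendritic cells, was at 0.276 to 0.443 CPM against 0.742 to 1.02, and Ccr10 at 0.303 to 0.620 against 0.662 to 1.24. Of all genes tested, 13.1% lay higher and 13.8% lower in this way, set against 2 and 6 of the 41 members. Each group held 1 of the 3 libraries.

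DES was compared with CON to ask whether the family differed after the scopolamine injections. The CON mice had no treatment, so the drug and the act of injection cannot be told apart. No member passed the test at an adjusted p of 0.05 (limma-voom, Benjamini-Hochberg over 21287 genes), and 0% of all genes did. At an unadjusted p under 0.05 there were 0 members, against 1.1% of all genes. The members split evenly, with 19 fitted higher and 22 lower and a median log2 fold change of -0.05, against 47.6% higher and a median of -0.02 over all genes. Ligands had 16 of 26 higher, with a median of 0.08, while receptors had 12 of 15 lower, with a median of -0.16. Of the conventional receptors 9 of 10 were lower, with Cxcr4 the exception. Without CON 1, the number of members higher was 25 of 41, and without CON 2 or without DES 3 it was 13. Summed lens markers lay at 223 to 266 CPM in CON and 368 to 43046 in DES, without overlap. The part of lens in the members' values was not tested.

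Several of the members with the smallest p in DES against CON leaned on single libraries. Cxcl5 had a fitted log2 fold change of 1.47 ± 0.91 (SE, unadjusted p = 0.137 and adjusted p = 1, limma-voom), which was 0.31 without DES 2 and 2.47 without DES 1. Ccl20 had 1.33 ± 0.89, or 0.51 without DES 2, 0.79 without CON 3 and 2.18 without DES 1. Ccl11 had 0.79 ± 0.52, or 0.20 without CON 2. It was the member whose groups did not overlap in CPM, 1 of 41 against 3.65% of all genes, and the gap was between 14.7 CPM in CON 1 and 14.9 in DES 3. In FPKM its groups overlapped, and 2 other members, Ccr1 and Ccr2, lay lower in DES without overlap, against 4.04% of all genes. On the lower side, Ccl9 was at 19.2, 12.5 and 16.2 CPM in CON and 6.74, 9.45 and 18.9 in DES, with a log2 fold change of -0.59 ± 0.36, or -0.27 without DES 1 and -0.97 without DES 3. Ackr1 had -0.75 ± 0.50, or -0.24 without CON 1 and -1.15 without CON 2. Ccr1, a receptor of monocytes and neutrophils, was at 4.20, 3.25 and 2.72 CPM in CON and 2.43, 1.62 and 2.82 in DES, with -0.59 ± 0.39, or -0.33 without DES 2. The adjusted p of each of these was 1 (limma-voom).

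T.chuii was compared with DES to ask what the microalga changed in injected mice. Again no member passed the adjusted threshold (limma-voom), as for 0% of all genes. At an unadjusted p under 0.05 there was 1 member, Ccl20, against 1.09% of all genes. Of the 41 members 26 were fitted higher and 15 lower, with a median log2 fold change of 0.09, against 45.1% higher and a median of -0.03 over all genes. In CPM, groups did not overlap for 3 members, all higher in T.chuii, against 2.3% of all genes in that direction and 4.8% in either. They were Ccl24, Cxcr4 and Ccr6. Cxcr4 passed the low-count filter only through the T.chuii libraries, where it was high, so its lack of overlap is not free of that filter. In FPKM the groups overlapped for Cxcr4, which left 2 members, against 3.58% of all genes. For Ccr6 the gap was narrow, with 0.321, 0.253 and 0.387 CPM in the DES libraries and 0.536, 0.480 and 0.416 in the T.chuii libraries. Summed adipocyte markers, 3 of 6 listed, lay at 11.7 to 43.5 CPM in DES and 84.4 to 1559 in T.chuii, without overlap. The lens and fast muscle sums overlapped between these groups. The part of adipose tissue in the members' values was not tested.

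Ccl24, a second eotaxin, measured 3.25, 0.620 and 1.54 CPM (CON), 1.04, 0.590 and 1.10 (DES) and 4.19, 1.66 and 1.51 (T.chuii). Its log2 fold change for T.chuii against DES was 1.31 ± 0.62 (SE, unadjusted p = 0.0587, limma-voom), or 0.87 without T.chuii 1. The T.chuii values lay above DES but within the range of CON for 2 of 3 libraries. Cxcr4 measured 0.166, 0.0861 and 0.0336 CPM (CON), 0.0602, 0.169 and 0.138 (DES) and 0.280, 0.349 and 0.189 (T.chuii). These came from 7, 5 and 2 reads, 3, 10 and 5 reads, and 12, 16 and 10 reads. Its log2 fold change was 1.15 ± 0.58, or 0.73 without DES 1. Cxcl13, the attractant of B cells, measured 3.01, 1.21 and 1.71 CPM (CON), 0.361, 3.37 and 2.43 (DES) and 4.33, 2.75 and 3.23 (T.chuii). Its log2 fold change of 1.22 ± 0.69 was 0.22 without DES 1 and 1.91 without DES 2.

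On the lower side in T.chuii, Ccl20 had a log2 fold change of -2.16 ± 0.93 against DES (unadjusted p = 0.0417, adjusted p = 1, limma-voom), or -1.31 without DES 2. The groups overlapped, since T.chuii 1, at 0.489 CPM, lay above DES 1, at 0.221. Cxcl5 had -1.39 ± 0.91, or -0.19 without DES 2 and -2.39 without DES 1. Ccl28 measured 0.712, 1.29 and 0.738 CPM (CON), 1.36, 1.15 and 0.635 (DES) and 0.769, 0.742 and 0.529 (T.chuii), with a log2 fold change of -0.59 ± 0.41, or -0.38 without DES 1.

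T.chuii was also set against CON, which differs from it in both the injections and the feed. No member passed the adjusted threshold (limma-voom), nor did any gene (0%). At an unadjusted p under 0.05 there were 3 members, Cxcr4, Ccl11 and Ccr1, against 4.28% of all genes. Cxcr4 passed the low-count filter only through the T.chuii libraries, so its p and its lack of overlap here are not free of that filter. Members were 22 higher and 19 lower, with a median log2 fold change of 0.05, against 44.6% higher and a median of -0.04 over all genes. Without T.chuii 1 and the other 2 libraries of high corneal share, 12 of 41 were higher. In CPM, groups did not overlap for 3 members, against 8.42% of all genes: Cxcr4 and Ccl11, higher, and Ccr9, lower. In FPKM this held for 4 members, against 11.5% of all genes: Cxcr4, higher, and Ccl28, Ccr1 and Ccr2, lower. Summed lens markers, all 8 listed, lay at 223 to 266 CPM in CON, 368 to 43046 in DES and 11684 to 58486 in T.chuii. For this sum CON overlapped neither DES nor T.chuii. The fast muscle sum, at 682 to 1818 CPM in CON and 2780.3 to 13606 in T.chuii, did not overlap between CON and T.chuii. Nor did the adipocyte sum given above, which also did not overlap between DES and T.chuii. The part of these tissues in the members' values was not tested. This comparison shares its libraries with the other 2, so the same values stand behind them.

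Cxcr4 had a log2 fold change of 1.63 ± 0.58 for T.chuii against CON (unadjusted p = 0.0185, adjusted p = 0.986, limma-voom), from 0.0952 ± 0.0667 CPM (SD, n = 3) to 0.273 ± 0.0802. Ccl11 had 1.40 ± 0.50 (unadjusted p = 0.0189, adjusted p = 0.986, limma-voom), from 11.3 ± 5.93 to 28.9 ± 18.1 CPM, or 0.80 without CON 2. Cxcl10 had 1.00 ± 0.55, or 0.52 without T.chuii 1 and 1.55 without T.chuii 2. On the lower side, the 3 members with the smallest unadjusted p were leukocyte receptors. Of the 10 conventional receptors as a whole, 5 were fitted higher and 5 lower. Ccr1 was at 3.14, 1.40 and 1.27 CPM in T.chuii, with a log2 fold change of -0.91 ± 0.40. Ccr2, the receptor of inflammatory monocytes, was at 2.80, 2.76 and 2.16 CPM (CON), 2.21, 1.94 and 1.13 (DES) and 2.19, 0.873 and 1.49 (T.chuii), with -0.84 ± 0.39, or -0.44 without T.chuii 2. Ccr9 was at 4.82, 4.68 and 6.11 CPM (CON), 3.93, 5.43 and 4.61 (DES) and 3.12, 4.30 and 4.20 (T.chuii), with -0.43 ± 0.27, or -0.28 without T.chuii 1.

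**Figure D5:**
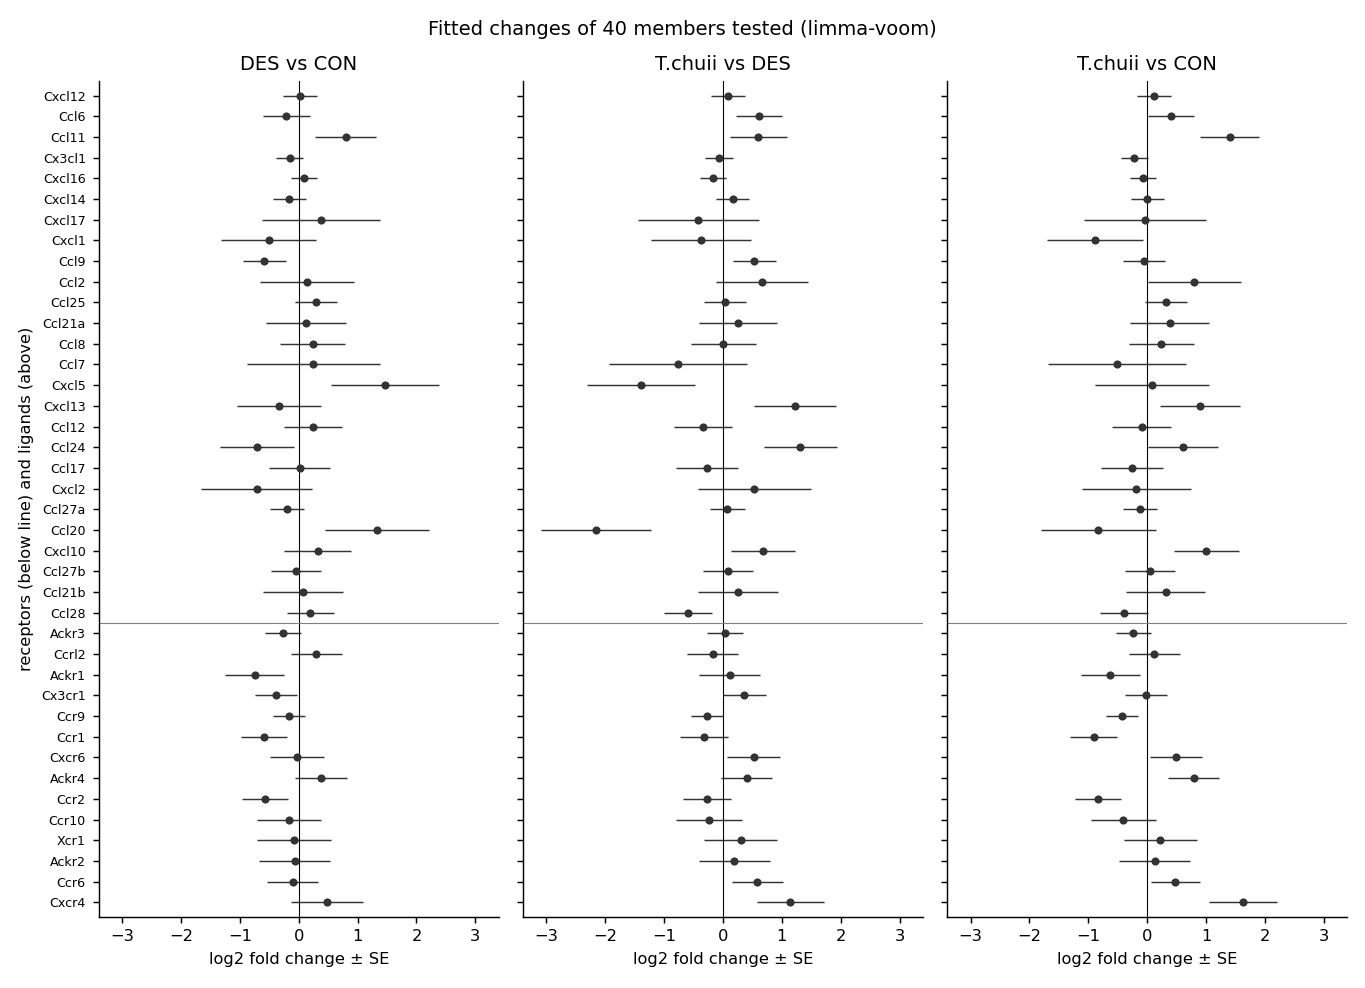
Log2 fold change with standard error of 40 of the 41 members tested in DES against CON, T.chuii against DES and T.chuii against CON, ligands above the grey line and receptors below, ordered by mean FPKM. No member passed the adjusted threshold, and the widest errors belonged to Ccl7, Cxcl17, Ccl20, Cxcl2 and Cxcl5.

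Of 12 family genes outside the symbol rule, 24 tested genes of receptor signalling, 10 of ligand cleavage, shedding and binding and 17 inducers of inflammatory ligands, none passed the adjusted threshold in any comparison (limma-voom), and at an unadjusted p under 0.05 there was 1, the gelatinase Mmp2 in DES against CON. Mmp2, which clips several chemokines, averaged 119 ± 77.6 CPM (CON), 46.6 ± 12.3 (DES) and 59.1 ± 31.9 (T.chuii), with a log2 fold change of -1.19 ± 0.46 for DES against CON (unadjusted p = 0.0270, adjusted p = 1, limma-voom). CON 2 held 207.9 CPM of Mmp2 against 65.6 and 82.8 in the other CON libraries, and without it the change was -0.69 (unadjusted p = 0.117, limma-voom). Among the inducers, 16 of 17 were fitted lower in DES than in CON, against 52.4% of all genes, but 4 of 17 without CON 2. In T.chuii against CON, which shares the CON libraries, 16 of 17 were lower, against 55.4% of all genes, and 11 of 17 without CON 2. Il1b averaged 3.09 ± 1.07 CPM (CON), 1.61 ± 0.41 (DES) and 1.85 ± 1.68 (T.chuii). All 10 genes of cleavage, shedding and binding were fitted lower in T.chuii than in CON, and 8 of 10 without CON 2, DES 1 and T.chuii 1.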

How the data were processed

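RNA from 9 whole-eye libraries (3 CON, 3 DES, 3 T.chuii, grouped by sample title) was sequenced after stranded library preparation, as the labels' protocols say. Per the submitters' processing notes, the authors used HISAT2 2.1.0, StringTie 2.1.3b, Bowtie2 2.3.4.1, Trimmomatic 0.38 and FastQC 0.11.7, with the build mm10. The deposited tables give a read count and an FPKM value per gene, per the file headers. Rows vary in their number of cells, so both were read from the right end. No table held a count of 0.

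Members were the protein-coding genes with symbols of the form Ccl, Cxcl, Cx3c, Xcl, Xcr, Ccr, Cxcr or Ackr and a number, or Ccrl2. The members, marker lists, pathway lists and alternatives were chosen with earlier results of these data known. Genes with the equivalent of 10 reads at the median library size in at least 3 libraries and 15 reads in total were tested, which kept 21287 of 22587 genes and 41 of 42 members. Ccl19 was not kept. Cxcr4 reached the required level in the T.chuii libraries alone, so it was kept through the group where it was highest. Values of 1 receptor are not reported here by themselves, though it is counted among the members.

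Libraries were normalized with TMM factors (trimmed mean of M) and the counts tested with limma-voom (limma 3.58.1, R 4.3.3), with 9 libraries in 1 fit, 6 residual degrees of freedom, two-sided, with Benjamini-Hochberg adjustment at 0.05. The script was tested on simulated data with the mean counts and the noise of these libraries. At the adjusted threshold it recovered 12% of genes changed 2-fold in each comparison, and 48% to 56% of those changed 4-fold. The changed genes averaged over 50 reads per library, and some members lie below that. A member that did not pass is therefore not shown to be unchanged. Folds are given for the 3 members of smallest unadjusted p in each direction of each comparison. Promoters and coordinates were taken from RefSeq GRCm38.p6, the assembly of mm10, and coding sequences from GENCODE. The promoter windows were first searched for 4 motifs (kappaB, an interferon-type element, AP-1 and TATA), a search not reported here, and the runs shared by Cxcl1 and Cxcl2 were looked for after its matches had been seen. Libraries with the same title number had positive correlations of their deviations in T.chuii and DES (r = 0.558, 0.342 and 0.17 for numbers 1, 2 and 3), although number 3 correlated more, at 0.463, with another number. In DES and CON (-0.297, -0.244 and 0.227) and in T.chuii and CON (-0.295, -0.371 and 0.293) only number 3 was positive. The file headers number the libraries differently (1, 4 and 5 in CON, 1, 2 and 4 in DES, 3, 4 and 5 in T.chuii), so what the numbers pair is not known. Python 3.11.15, pandas 2.3.3 and matplotlib 3.10.9 were used.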

Additional observations from a re-analysis of the deposited data

How the results depend on the processing

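No member passed the adjusted threshold under any alternative tried, which numbered 19 for DES against CON, 20 for T.chuii against DES and 19 for T.chuii against CON. The alternatives were median-of-ratios scaling, no filter, log2(FPKM + 0.1) and log2(FPKM + 1), only the groups compared, sample quality weights, a replicate block, the corneal to rod ratio as a covariate, and leaving out libraries. The members' smallest adjusted p over them was 0.999, 0.312 and 0.201 (limma). Members at an unadjusted p under 0.05 numbered 0 to 4, 1 to 4 and 1 to 5. Members fitted higher numbered 13 to 25, 18 to 28 and 12 to 27 of 41, so the direction of the family as a whole depended on the setting. The members named with a fold kept their sign in each alternative, but some came close to 0. Without CON 2, DES 1 and T.chuii 1, Cxcl13 in T.chuii against DES was 0.04, and Ccl11 was 0.10 in DES against CON and 0.32 in T.chuii against CON, while Cxcl5 and Ccl20 grew to 2.63 and 2.61 in DES against CON and to -2.93 and -3.83 in T.chuii against DES. On the log2(FPKM + 0.1) scale the median of all genes in T.chuii against CON was -0.11.

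With the replicate block, 0 members passed in each comparison, so it changed no call, and members of T.chuii against DES at an unadjusted p under 0.05 were 2 in place of 1. With the block and the DES and T.chuii libraries only, an alternative chosen after the data were seen, 0 members and 2 genes passed. With a block by the numbers in the file headers, also chosen after the data were seen and with 2 residual degrees of freedom, 0 members passed in each comparison and 12, 0 and 11 genes did. Leaving out 1 library at a time gave 0 members each time. Over all genes, 15 passed in DES against CON and 17 in T.chuii against CON without DES 2, and 12 passed in T.chuii against CON with only those groups. The cause was not tested. Depth limits Cxcr4, Ccl19, Ccl20, Ccl21b and Ccr6, each with fewer than 10 reads in at least 1 library.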
